A study of Oryza longistaminata with 9 samples.

Results

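The genes described here were those that the deposited gene table of Oryza longistaminata anthers assigned to the MYB transcription factors, 240 of the 46327 gene models listed. A gene was taken if the family column of the table read Myb_DNA-binding or MYB, or if its description held the Pfam domain PF00249 or the words Myb-like, transcription factor MYB or GAMYB. Of the 240 genes, 166 were found by both columns, 67 by the family column alone and 7 by the description alone. The rule itself used no measured value, but it was set with earlier results of these data known.

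RNA was read from dissected anthers of O. longistaminata, a perennial wild rice of Africa, without any treatment or altered allele. Ls-4mm anthers came from 4-mm spikelets, which the study places at the stage in which divisions produce the primary sporogenous cells. Ls-6mm anthers came from 6-mm spikelets, in which somatic layers including the tapetum enclose the pollen mother cells. Each stage had 3 libraries, with 14509449 to 21232663 counts in genes per library, and libraries of an older stage, Ls-8.5mm, were not analysed here. Nothing in the labels or methods ties the libraries to separate plants. The p-values therefore reflect only how these libraries differed, which may be technical. The anther was sequenced as a whole, so fewer cells of a type and less RNA per cell cannot be told apart.

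MYB proteins bind DNA through 1 or more repeats of a helix-turn-helix fold, and the number of repeats separates their classes. The R2R3 class is the largest in plants and holds regulators of phenylpropanoid synthesis, secondary walls, the tapetum and pollen. Proteins with 1 repeat include regulators of the circadian clock and of sugar and phosphate responses, and 3-repeat proteins regulate genes of mitosis. SANT domains resemble MYB repeats in fold and occur in chromatin proteins. In rice anthers the best known member is GAMYB, which acts downstream of gibberellin and is needed for the tapetum and for pollen.

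Libraries of both stages were compared with edgeR's quasi-likelihood test, and a gene was called if its Benjamini-Hochberg adjusted p over all tested genes was under 0.05, whatever the size of the change. Levels are given as CPM, counts per 1000000 counts of the library after TMM scaling. Positions are those of the table, whose gene identifiers are of the O. sativa subsp. indica type although the reference was said to be O. longistaminata, so the assembly is uncertain.

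MYB RNA was more abundant and spread over more genes at 6 mm. The 240 genes went from a summed 2551 ± 36.2 CPM at 4 mm to 3641 ± 11.2 CPM at 6 mm (SD, n = 3 libraries each). Each Ls-4mm library had counts for 175 to 178 of them and each Ls-6mm library for 202 to 207. The Ls-6mm libraries were also deeper, with 17076800 to 21232663 counts beside 14509449 to 16684146. These numbers of genes with counts were not corrected for depth, and they were not taken over all genes. The number at 10 CPM or more went from between 55 and 61 in an Ls-4mm library to between 79 and 81 in an Ls-6mm library. The 10 most abundant genes held 40.1 ± 0.255% of the summed level in Ls-4mm and 34.8 ± 0.157% in Ls-6mm. The groups of libraries did not overlap in any of these measures.

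Genes that reached 1 CPM at only one stage were mostly genes of the later stage. By stage means, 118 of the 240 genes reached 1 CPM in both stages, 33 in Ls-6mm only, 7 in Ls-4mm only and 82 in neither. From under 1 CPM in Ls-4mm, 9 genes went to at least 10 CPM in Ls-6mm, and 0 genes went the opposite way. No count at all was found for 15 genes in the 6 libraries.

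**Figure D1:**
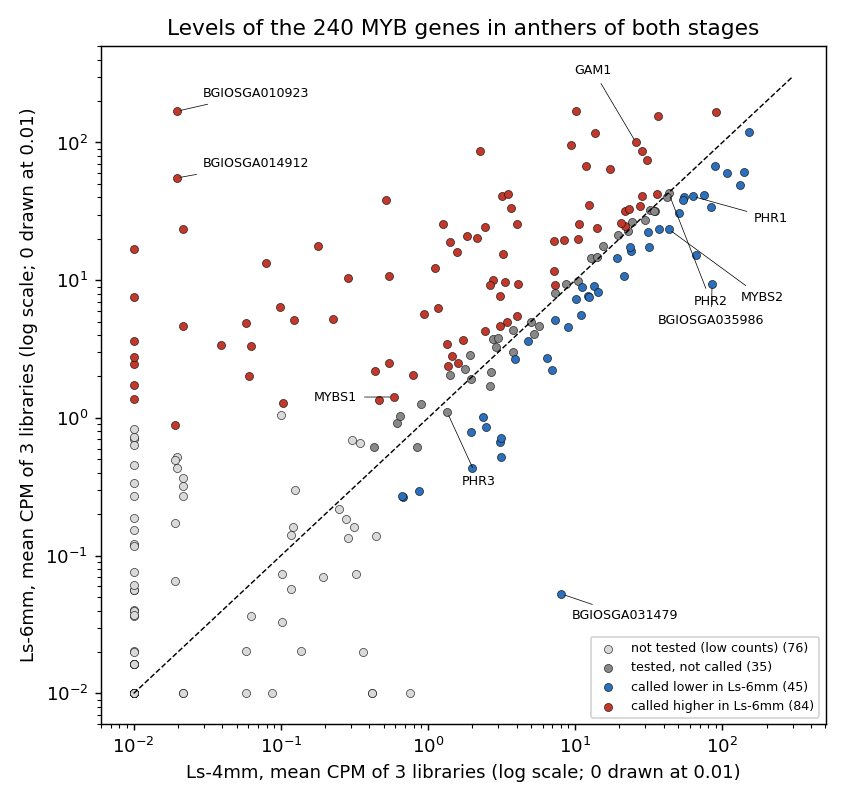
Mean level of each of the 240 MYB genes in Ls-4mm (horizontal axis) and Ls-6mm (vertical axis), in CPM on log axes, with means of 3 libraries and values of 0 drawn at 0.01. Points are coloured by the edgeR call, and the dashed line marks equal levels. The upper left holds 9 genes that went from under 1 CPM to at least 10 CPM, and BGIOSGA031479 is the called gene farthest below the line.

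Counts sufficed to test 164 of the 240 genes, and the 76 others had a median of 6 and at most 61 counts over the 6 libraries. In edgeR's quasi-likelihood test 84 rose from 4 mm to 6 mm, 45 fell and 35 did not pass. Together 129 of 164, or 78.7%, were called, beside 80.6% of all 23691 tested genes, so the share that changed was near the background. The libraries of the stages did not overlap for 132 of the 164 genes, or 80.5%, beside 81.7% of all tested genes. A lack of overlap was thus common in the whole table and does not set a gene apart. The directions were less even than in the whole table: 51.2% of the tested MYB genes were higher, beside 42% of all tested genes, and 27.4% were lower, beside 38.6%. At least 2-fold higher were 65, or 39.6%, beside 24.7% of all tested genes, and at least 2-fold lower were 19, or 11.6%, beside 14.4%. A gene that reached the count minimum only through Ls-6mm had to differ, and 7 of the 84 genes had 0 counts in Ls-4mm.

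The 84 genes that rose had a median log2 fold change of 2.46 and the 45 that fell one of -0.85, beside 1.26 and -0.80 for all called genes of the table. Changes of at least 10-fold were found in 35 higher genes (21.3% of those tested, beside 8.97% of all tested genes) and in 1 lower gene (0.61%, beside 0.785%), and 24 called genes changed by less than 1.5-fold. The median log2 fold change of the tested MYB genes was 0.51, beside 0.04 over all tested genes. These sizes rest in part on genes that reached the count minimum through Ls-6mm. With at least 10 counts required in every library, 29 genes that rose and 9 that fell were no longer tested, the medians were 1.35 for higher and -0.71 for lower genes, and the median over the tested MYB genes was 0.27. In that fit 11 genes were at least 10-fold higher (9.09%, beside 2.39% of all genes) and 0 were 10-fold lower. The called higher genes rose from a summed 608 ± 29.9 CPM to 2394 ± 22.9 CPM, and the called lower genes went from 1536 ± 6.19 to 833 ± 12.9 CPM (SD, n = 3). The directions of these sums follow from the calls.

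**Figure D2:**
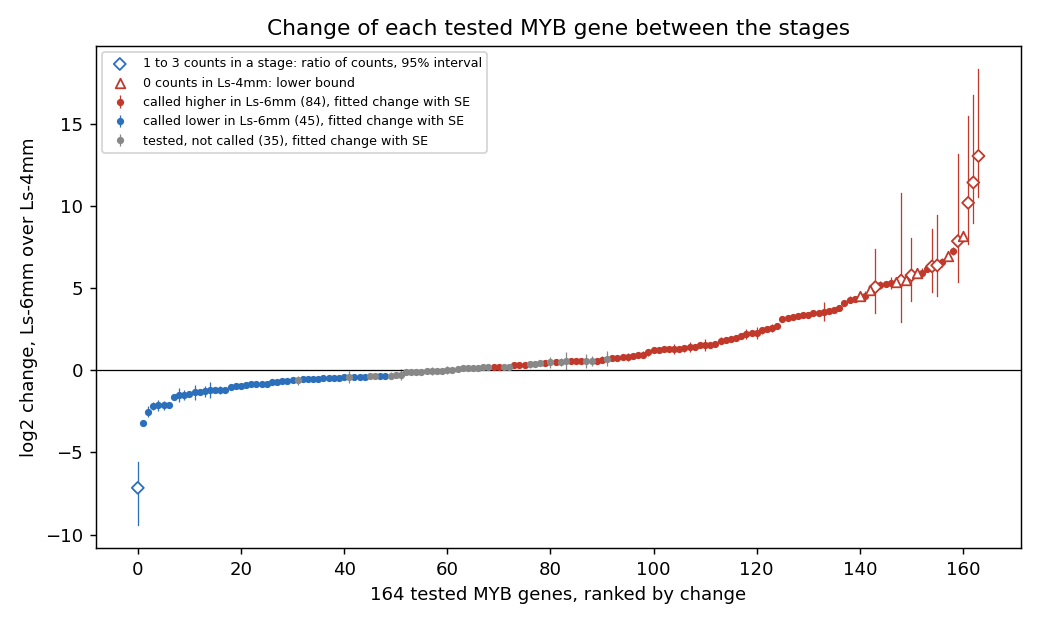
The log2 change of Ls-6mm over Ls-4mm for each of the 164 tested MYB genes, ranked, as the fitted change with its SE, or, for genes with 1 to 3 counts in a stage, as the ratio of counts with a 95% interval of counting error, or, for the 7 genes with 0 counts in Ls-4mm, as a lower bound. The right side with 84 called rises reaches farther from 0 than the left side with 45 called falls, and the 35 genes that did not pass lie near 0.

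The higher genes started low and the lower genes started high, which follows in part from grouping genes by calls on these same values. The called genes of the whole table were not measured in this way. Per kb of coding length, the 84 higher genes had a median of 2.20 CPM in Ls-4mm and 17.5 in Ls-6mm, and the 45 lower genes 11.6 and 6.60. Levels of MYB genes were below those of other genes, with medians of 3.77 CPM over the tested MYB genes and 12.7 over all tested genes in Ls-4mm, and of 9.41 and 14.5 in Ls-6mm. Under a mean of 1 CPM over the 6 libraries, 41.7% of 12 MYB genes were higher, beside 47% of all genes at that level, and 25% were lower, beside 20%. In genes with a mean of 1 to 10 CPM over the 6 libraries, 54.5% of 77 MYB genes were higher, beside 42.8% of all genes at that level, and 22.1% were lower, beside 31.1%. Between 10 and 50 CPM, 48.3% of 58 MYB genes were higher, beside 40.4%, and 29.3% were lower, beside 43.8%. At 50 CPM or more, 52.9% of 17 were higher, beside 41.7%, and 47.1% were lower, beside 48.2%. The lean towards higher calls was thus not seen at the lowest levels.

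The only gene of the table named for GAMYB, the gibberellin-responsive regulator of tapetum and aleurone, rose almost 4-fold. GAM1 (BGIOSGA004670, chr1:37931543-37934541, plus strand) had 26.7, 24.99 and 25.9 CPM in the Ls-4mm libraries and 103, 101 and 96.6 CPM in the Ls-6mm libraries. Every Ls-6mm library was far above every Ls-4mm library. The log2 fold change was 1.95 ± 0.05 (SE, adjusted p = 1.33e-15 in edgeR's quasi-likelihood test). Per kb of coding length GAM1 went from 15.6 to 60.2 CPM.

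MYBS1 and MYBS2 bind the sugar response element of alpha-amylase promoters in rice, MYBS1 as an activator when sugar is short and MYBS2 as a repressor. They moved in opposite directions. MYBS2 (BGIOSGA031397, chr10:21205041-21206533) had 42.7, 43.4 and 43.7 CPM in Ls-4mm and 24.2, 23.4 and 22.8 CPM in Ls-6mm, a log2 fold change of -0.88 ± 0.06 (edgeR's adjusted p = 5.22e-10). MYBS1 (BGIOSGA003670, chr1:21052668-21053709) was far scarcer, with 0.585, 0.692 and 0.473 CPM in Ls-4mm and 1.14, 1.53 and 1.60 CPM in Ls-6mm. The stages did not overlap for either gene, and the log2 fold change of MYBS1 was 1.27 ± 0.32 (edgeR's adjusted p = 0.00151) on 29 and 76 counts. The remaining gene described as a MYB transcription factor, BGIOSGA004852, had 2.47, 3.52 and 3.25 CPM in Ls-4mm and 8.01, 6.60 and 8.29 CPM in Ls-6mm (log2 fold change 1.29 ± 0.17, edgeR's adjusted p = 1.85e-06).

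Alpha-amylases, the best known targets of GAMYB and MYBS proteins in cereal grain, were close to silent in both stages. Only 1 of the 9 alpha-amylase genes of the table could be tested, BGIOSGA030906, which went from 1.56 ± 0.265 to 1.08 ± 0.426 CPM (SD, n = 3) and did not pass (edgeR's adjusted p = 0.109). DESeq2, which tested 6 of them, called 3 higher, each with a mean under 1 CPM in both stages. RNA of SLR1 (BGIOSGA013420), whose DELLA protein is the repressor that gibberellin removes, was abundant and fell from 557 ± 67.2 to 477 ± 9.27 CPM (log2 fold change -0.23, edgeR's adjusted p = 0.00274). Levels of the protein were not examined here. Of 11 GASA-type gibberellin regulated genes, 9 were tested, 5 were higher and 2 were lower, a share called of 77.8% that was near the background of 80.6%. The largest change among them was in BGIOSGA009775, from 54.5 ± 2.37 to 383 ± 4.76 CPM (log2 fold change 2.81).

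**Figure D3:**
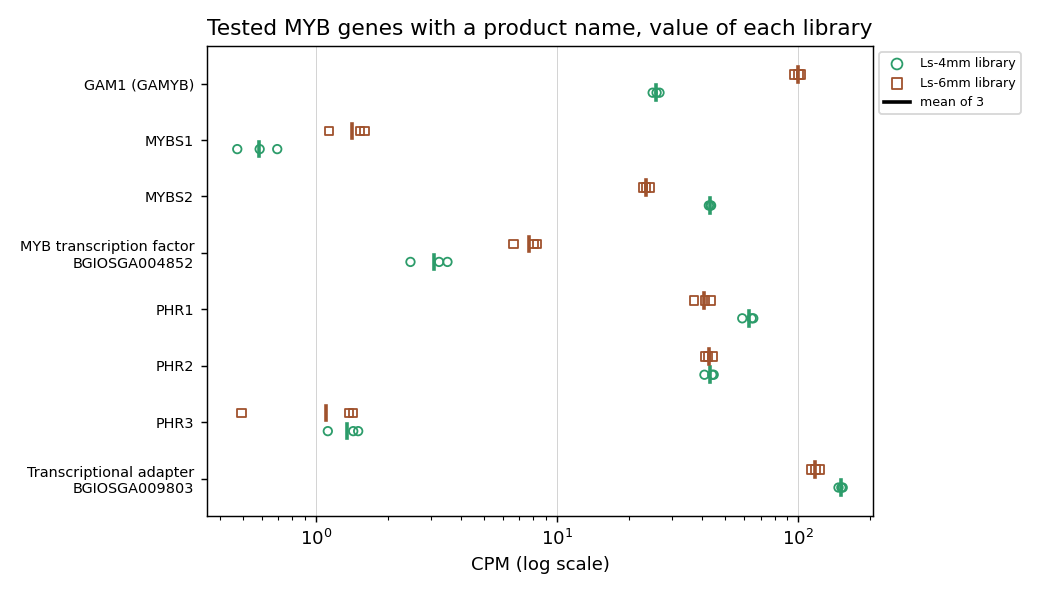
CPM in each library of the 8 tested MYB genes with a product name, on a log axis, with circles for Ls-4mm, squares for Ls-6mm and bars for the mean of 3 libraries. The stages are apart in all but PHR2 and PHR3, and GAM1 shows the widest gap, from about 26 to about 100 CPM.

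PHR proteins of the MYB-CC class activate genes of the phosphate starvation response, and SPX proteins hold them back when phosphate is plentiful. The 3 named PHR genes did not move together. PHR1 (BGIOSGA012553) fell, with 65.3, 64.3 and 58.8 CPM in Ls-4mm and 37.0, 43.6 and 41.3 CPM in Ls-6mm (log2 fold change -0.62 ± 0.06, edgeR's adjusted p = 1.04e-07). PHR2 (BGIOSGA025605), the main regulator of this response in rice, had 44.8, 41.0 and 44.1 CPM in Ls-4mm and 44.2, 42.4 and 41.4 CPM in Ls-6mm. The PHR2 libraries overlapped between stages, with a log2 fold change of -0.02 ± 0.06 (edgeR's adjusted p = 0.753). PHR3 (BGIOSGA007162) was scarce, at 1.43, 1.5 and 1.12 CPM in Ls-4mm and 1.37, 1.43 and 0.491 CPM in Ls-6mm, and did not pass (edgeR's adjusted p = 0.469). Replicate 3 of Ls-6mm lay apart from the other libraries, and without it the log2 fold change was 0.05 in place of -0.27.

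The other 5 genes with a MYB-CC motif split as well. BGIOSGA030474 rose from 22.8, 23.1 and 23.9 CPM to 32.3, 32.8 and 34.1 CPM, and BGIOSGA017051 from 1.73 ± 0.315 to 3.68 ± 0.713 CPM. BGIOSGA017810 rose by 0.20 on the log2 scale (edgeR's adjusted p = 0.0285). BGIOSGA023251 fell from 32.3, 31.4 and 31.0 CPM to 16.5, 19.2 and 16.5 CPM. BGIOSGA023423 did not pass, with means of 2.63 ± 0.899 and 1.70 ± 0.404 CPM. A further 5 genes carry the motif without a word that the choice of genes used. Of these, 4 were tested and all 4 were lower, beside 38.6% of all tested genes. The further 5 genes were added after the words of the table had been read.

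Genes with an SPX domain and purple acid phosphatases, families that include genes of the phosphate response in rice, mostly rose by small steps. They were matched by words, and whether each responds to phosphate was not tested. Of 9 genes with an SPX domain, 7 were higher and 1 was lower (median log2 fold change 0.70). SPX1 went from 47.3 ± 2.83 to 59.2 ± 2.70 CPM, and SPX6 fell from 2.97 ± 0.299 to 1.00 ± 0.25 CPM. Of 27 purple acid phosphatases, enzymes that free phosphate from organic compounds, 20 were tested, 17 were higher and 2 were lower. These counts stand beside a background of 42% higher and 38.6% lower.

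The largest rise took a gene from near silence to the level of the most abundant MYB genes. BGIOSGA010923 (chr3:11339462-11341729) had 0, 0 and 0.0591 CPM in Ls-4mm, which was 1 count in all, and 177, 163 and 166 CPM in Ls-6mm. Its ratio of counts per library size was 8350, with a 95% interval of counting error from 1498 to 3.299e+05. At 183 CPM per kb in Ls-6mm it was near BGIOSGA007700, the most abundant MYB gene per kb. The table gives it a PF00249 domain and no name.

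BGIOSGA014912 (chr4:21915517-21916816) also started near silence and ended lower, from 0, 0 and 0.0591 CPM to 58.4, 53.0 and 54.4 CPM. Its ratio was 2736 (95% counting interval 490.6 to 1.081e+05). BGIOSGA034994 (chr11:4965759-4968568) had 0 counts in all 3 Ls-4mm libraries and 16.1, 16.9 and 17.8 CPM in Ls-6mm. Against a limit of 3 counts over the Ls-4mm group, 0.0605 CPM, it was at least 281-fold higher. All of these were called in edgeR's quasi-likelihood test, with adjusted p-values of 6.95e-20 for BGIOSGA010923, 1.92e-17 for BGIOSGA014912 and 3.04e-13 for BGIOSGA034994.

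Neighbouring genes were among the largest rises. BGIOSGA018239 and BGIOSGA018238 lie 1507 bases apart on the same strand of chromosome 5 (chr5:17338162-17339072 and chr5:17340579-17341043). BGIOSGA018239 had 0.065, 0 and 0 CPM in Ls-4mm and 23.1, 22.7 and 24.4 CPM in Ls-6mm, a ratio of 1160 (95% counting interval 207.8 to 4.585e+04). BGIOSGA018238 had 0 counts in Ls-4mm but 7.71, 7.44 and 7.43 CPM at 6 mm, which made it at least 125-fold higher. On chromosome 1, BGIOSGA001461 rose from 0.455, 0.519 and 0.591 CPM to 39.9, 36.8 and 37.96 CPM (log2 fold change 6.17 ± 0.14). Its neighbour BGIOSGA001460, 7439 bases away on the same strand, rose from 0.0631 to 3.30 CPM as means of 3 libraries. Near-identical copies can share reads, and whether the counting split such reads between these neighbours was not tested.

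The other 4 of the 10 largest rises among genes of at least 5 CPM in Ls-6mm were BGIOSGA012194, BGIOSGA013008, BGIOSGA020297 and BGIOSGA028296, with log2 fold changes of 7.25 ± 0.26, 6.55 ± 0.24, 5.90 ± 0.31 and 5.31 ± 0.38. All had under 0.4 CPM in every Ls-4mm library and from 4.83 to 18.8 CPM in the Ls-6mm libraries. A further 5 genes were at 0 counts in Ls-4mm and above 1 CPM in Ls-6mm. These were BGIOSGA005707, at least 59.4-fold higher, BGIOSGA024398, at least 45.7-fold higher, BGIOSGA005602, at least 41.1-fold higher, BGIOSGA021532, at least 28.9-fold higher, and BGIOSGA010874, at least 22.6-fold higher. BGIOSGA005707 is the only one of these 5 with a PF13921 domain beside PF00249. No gene at 0 counts in Ls-6mm reached 1 CPM in Ls-4mm.

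One fall was of a similar size to these rises. BGIOSGA031479 (chr10:20121060-20125827) had 9.11, 6.92 and 8.15 CPM in Ls-4mm and 0.0597, 0.0985 and 0 CPM in Ls-6mm. On 398 and 3 counts the ratio of Ls-4mm to Ls-6mm was 143, with a 95% interval of counting error from 48.4 to 694 (edgeR's adjusted p = 1.02e-11). The table places it among the MYB genes by its family column and gives no description.

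BGIOSGA035986 (chr12:18840773-18845280) was among the most abundant MYB genes in Ls-4mm and fell 9.13-fold, from 89.5, 82.4 and 83.6 CPM to 10.3, 9.31 and 8.35 CPM (log2 fold change -3.19 ± 0.07, edgeR's adjusted p = 1.64e-16). BGIOSGA003060 fell from 70.6, 62.6 and 64.8 CPM to 14.7, 16.7 and 14.6 CPM (log2 fold change -2.10). The stages were far apart for both genes. Among genes with 5 CPM or more in Ls-4mm, the next falls ran from 2- to 3.12-fold: BGIOSGA002879 went from 6.99 to 2.24 CPM, BGIOSGA016164 from 83.8 to 33.9 CPM, BGIOSGA023696 from 6.40 to 2.72 CPM, BGIOSGA007946 from 140 to 61.1 CPM, and BGIOSGA002040 from 21.3 to 10.7 CPM, as means of 3 libraries. BGIOSGA003345 fell from 10.9 to 5.59 CPM. Called genes under that level fell by more in some cases, up to 5.97-fold in BGIOSGA024099 (3.12 to 0.523 CPM). Among genes too scarce to test, BGIOSGA011527 went from 38 counts over the Ls-4mm libraries to 0, and BGIOSGA031610 from 18 counts to 1. BGIOSGA024099, BGIOSGA011527 and BGIOSGA031610 were picked out after their values were seen. Reads of 7 MYB genes were found at 4 mm alone, beside 33 genes found at 6 mm alone, where the libraries were deeper. The same counts were not taken over all genes.

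**Figure D4:**
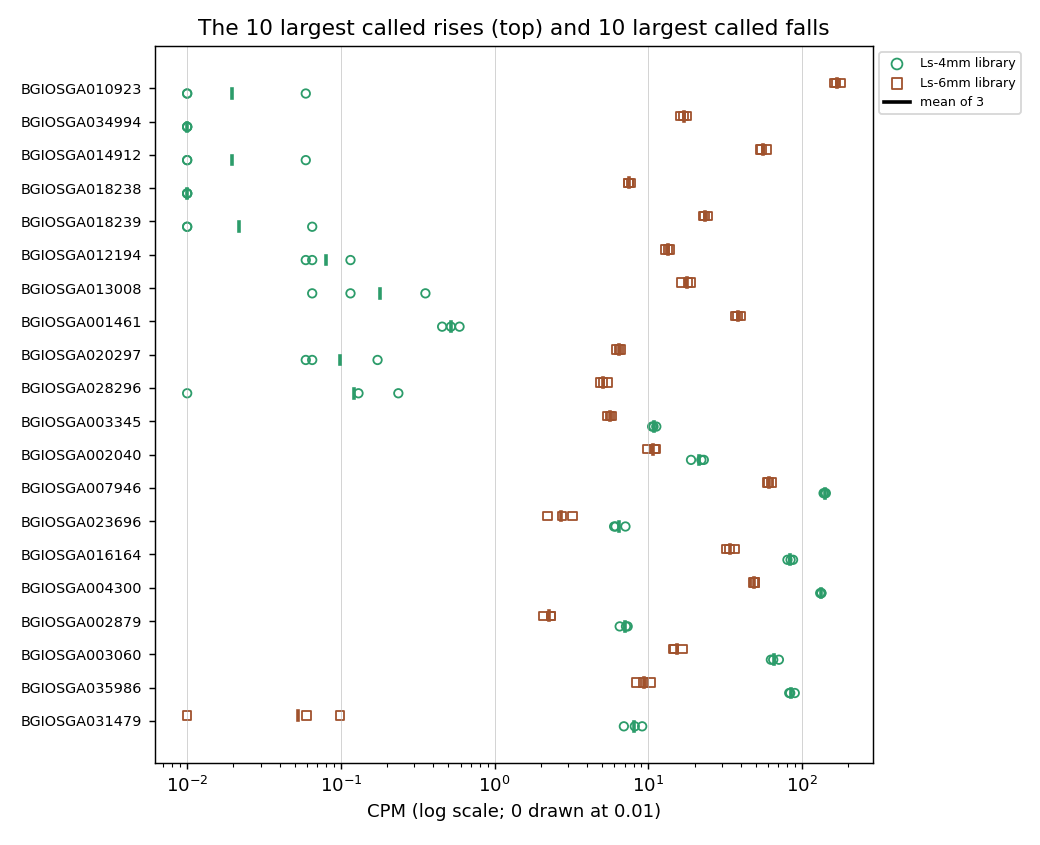
CPM in each library for the 10 largest called rises (upper rows) and the 10 largest called falls (lower rows) among genes without overlap whose higher stage had a mean of 5 CPM or more, on a log axis with 0 drawn at 0.01, circles for Ls-4mm, squares for Ls-6mm and bars for means. The rises begin under 0.6 CPM, and the falls end above 2 CPM except for BGIOSGA031479, which ends under 0.1 CPM.

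Of the genes with a second domain or product, 3 that point to chromatin proteins were abundant and fell. BGIOSGA004300 joins a MYB domain to a linker histone H1/H5 domain, an arrangement that in maize marks proteins binding telomeric DNA. It had 133, 133 and 131 CPM in Ls-4mm and 49.3, 48.9 and 48.3 CPM in Ls-6mm (log2 fold change -1.44 ± 0.04, edgeR's adjusted p = 4.1e-15). The transcriptional adapter BGIOSGA009803, of a kind that works with histone acetyltransferases, had 153, 147 and 151 CPM in Ls-4mm and 119, 123 and 113 CPM in Ls-6mm (log2 fold change -0.35 ± 0.04, edgeR's adjusted p = 6.88e-07). BGIOSGA020282, with the SANT domain that the table credits to DAMP1, went from 104, 111 and 108 CPM to 59.7, 59.8 and 59.7 CPM (log2 fold change -0.85). The stages did not overlap for any of the 3 genes, as was the case for 81.7% of all tested genes.

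The other genes with a second domain or product did not pass or were not tested. Beside actin domains stand BGIOSGA016277, at 3.75 ± 0.497 CPM in Ls-4mm and 4.38 ± 0.276 in Ls-6mm, and BGIOSGA025705, at 29.9 ± 3.25 and 27.4 ± 2.06 CPM (SD, n = 3). BGIOSGA010900, with the C-terminus of the maize P protein, a regulator of flavonoid pigments, had 0.842 ± 0.398 and 0.618 ± 0.0717 CPM. Ehd1 (BGIOSGA031750), a promoter of flowering in rice, had 0 counts in all 6 libraries. BGIOSGA012704, listed as a peroxidase, was at 0 counts at 4 mm and at 0.831 ± 0.317 CPM at 6 mm.

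**Figure D5:**
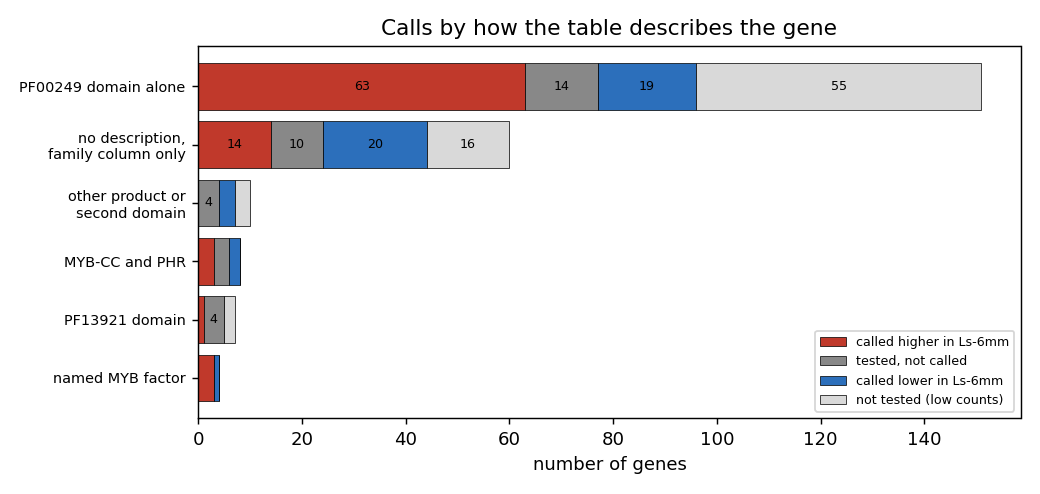
Number of MYB genes called higher, called lower, tested without a call and not tested, by how the table describes the gene, on an axis from 0. Genes with PF00249 alone show 63 higher and 19 lower, and genes without a description 14 higher and 20 lower.

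The split of directions differed with how the table describes the gene. Of 151 genes described by PF00249 alone, 96 were tested, 63 were higher (65.6%) and 19 were lower (19.8%). Of 60 genes in the family by the family column only, with no description, 44 were tested, 14 were higher (31.8%) and 20 were lower (45.5%). Over all tested genes, 42% were higher and 38.6% were lower. The medians of the log2 fold changes were 1.24 for PF00249 alone and -0.10 for the family column only. The gene models of these 2 sets also differed in length, with median coding lengths of 837 and 1192.5 bases. No test of this difference was run, and the part that gene length has in it was not tested. Of 7 genes with a PF13921 domain, 5 were tested and 1, BGIOSGA005707, was higher.

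The most abundant MYB genes per kb of coding length were a mixed set. BGIOSGA007700 led, with 108 CPM per kb in Ls-4mm and 199 in Ls-6mm (log2 fold change 0.88 ± 0.06), on 80.1, 98.4 and 94.2 CPM and 171, 165 and 166 CPM. BGIOSGA020819 went from 39.3 to 167 CPM per kb, BGIOSGA029363 from 18.1 to 156 and BGIOSGA019160 from 7.83 to 133, with log2 fold changes of 2.09, 3.11 and 4.08. The stages did not overlap for any of these 4 genes, as was the case for 81.7% of all tested genes. BGIOSGA004300 went from 144 to 53.0 CPM per kb, BGIOSGA009803 from 88.0 to 69.1 and BGIOSGA025705 from 73.3 to 67.3, of which the last did not pass. In Ls-4mm the linker histone gene BGIOSGA004300 was ahead of BGIOSGA007700 per kb, and in Ls-6mm BGIOSGA007700 was ahead of BGIOSGA010923.

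Among genes of at least 20 CPM, 4 had the smallest change. These were BGIOSGA020708 (32.4 ± 1.43 and 32.5 ± 1.79 CPM), PHR2, BGIOSGA027973 (41.8 ± 1.38 and 40.04 ± 0.912 CPM) and BGIOSGA027652, whose second domain is TMPIT-like. BGIOSGA027652 owed its place to 1 library, with 28.4, 29.5 and 10.8 CPM in Ls-4mm and 22.04, 20.6 and 26.2 CPM in Ls-6mm. Without replicate 3 of Ls-4mm its log2 fold change was -0.35 (edgeR's adjusted p = 0.00417) in place of 0.0003. Its coefficient of variation in Ls-4mm, 45.8%, was the highest of all MYB genes at 10 CPM or more, whose median was 6.21% in Ls-4mm and 4.47% in Ls-6mm.

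Few MYB genes that lie close together could be compared. Within 50 kb of another MYB gene were 64 of the 240 genes, in 27 groups, and 34 of the 64 had too few counts to test. At least 2 genes could be tested in 10 groups, in 2 of which both were higher, and in 3 of which one was higher and the other lower. On chromosome 3, BGIOSGA012194 rose from 0.065, 0.115 and 0.0591 CPM to 13.9, 13.4 and 12.8 CPM. The next MYB gene, BGIOSGA011155, went the other way, from 0.716, 0.635 and 0.650 CPM to 0.0597, 0.443 and 0.307 CPM. That fall rests on 33 and 15 counts (edgeR's adjusted p = 0.0307) and lost its call in DESeq2 and when any of 5 libraries was left out. On chromosome 2, BGIOSGA008698 rose from 10.6 to 25.4 CPM and BGIOSGA008700 fell from 13.3 to 9.10 CPM as means of 3 libraries.

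Of the groups of 4 on chromosome 6, 1 was almost silent and the others each held 1 expressed gene. In the silent group (chr6:4300866-4336047) BGIOSGA021811, BGIOSGA021812 and BGIOSGA021814 had 0 counts in all 6 libraries and BGIOSGA021813 had 4 counts, all in 1 Ls-4mm library. In another (chr6:9246729-9286395) BGIOSGA022649 rose from 4.07 ± 0.904 to 9.38 ± 0.811 CPM, whereas BGIOSGA022651, BGIOSGA022652 and BGIOSGA022653 had 0 counts in Ls-4mm and up to 33 in Ls-6mm. In the group at chr6:746463-797944, BGIOSGA022077 had 19.4 ± 1.56 and 21.3 ± 0.881 CPM and did not pass, and BGIOSGA022168, BGIOSGA022169 and BGIOSGA022174 had at most 14 counts. A group of 4 on chromosome 8 had no call, with BGIOSGA027987 at 34.2 ± 2.01 and 31.9 ± 0.656 CPM beside BGIOSGA027652, and with BGIOSGA027658 and BGIOSGA027659 at 0 counts in Ls-4mm. On chromosome 5, BGIOSGA017963 and BGIOSGA017965 had 0 counts and BGIOSGA017964 had 19, all in Ls-6mm. The remaining gene of the chromosome 3 group, BGIOSGA011154, had 21 counts.

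Other families of transcription factors gave a range of directions. In the NAM family of the table (NAC factors), 93 genes were tested, 61 were higher and 22 were lower (median log2 fold change 1.22). In the WRKY family 14 of 43 were higher and 23 were lower (median -0.35), in the HLH family 29 of 80 were higher and 36 were lower (median -0.10), and in the SRF-TF family, which holds the MADS factors, 12 of 26 were higher and 8 were lower (median 0.17). Over all tested genes, 42% were higher and 38.6% were lower. The shares were 65.6% and 23.7% of NAM genes, 46.2% and 30.8% of SRF-TF genes, 36.25% and 45% of HLH genes, and 32.6% and 53.5% of WRKY genes. The lean towards higher calls was thus found in NAM genes as well and, to a smaller degree, in the 26 SRF-TF genes, and no test between families was run. Among 54 Myb/SANT-like genes outside the choice, 22 were tested, 6 were higher and 10 were lower.

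Several pathways that MYB proteins are known to regulate in plants had more genes higher than lower in Ls-6mm. Of 37 genes of flavonoid and phenylpropanoid synthesis, 12 were tested, 10 were higher and 1 was lower, beside 42% and 38.6% of all tested genes. Phenylalanine ammonia-lyase opens this pathway, and 4 of its 5 tested genes were higher, among them BGIOSGA006000, from 26.8 ± 2.58 to 505 ± 14.99 CPM. Chalcone and stilbene synthases went from a summed 3.55 ± 0.105 CPM to 2365 ± 46.1 CPM, with 3 of 3 tested genes higher. Most of the later sum was in BGIOSGA024426 (1321 CPM) and BGIOSGA033154 (976 CPM), which are described by domains only. CHS1, described as chalcone synthase 1, went from 1.70 ± 0.237 to 68.3 ± 2.24 CPM. Chalcone and stilbene synthase families also include polyketide synthases of the pollen wall. Of the 12 tested genes, 2 also stand among the sporopollenin enzymes below.

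Secondary-wall cellulose synthases, whose genes MYB proteins regulate in stems, rose as well. CESA9 went from 4.53 ± 0.127 to 239 ± 2.08 CPM and CESA4 from 13.97 ± 1.09 to 174 ± 2.98 CPM. CESA1 and CESA5, of the primary-wall type, were higher too, and CESA2 fell from 243 ± 3.61 to 182 ± 2.37 CPM. Of 67 genes matched as sporopollenin enzymes, 26 were tested, 20 were higher and 3 were lower, beside 42% and 38.6% of all tested genes. Of the 26 tested sporopollenin genes, 13 are strictosidine synthase-like genes that also make up the tapetum markers below, so the lists are not separate results. The mitotic cyclin CYCB2-1, of a gene class that 3-repeat MYB proteins regulate in plants, fell from 104 ± 9.26 to 19.0 ± 1.76 CPM (log2 fold change -2.46).

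Of 48 tested genes matched for phosphate starvation, which include triose-phosphate transporters, 38 were higher and 7 were lower, and of 9 tested for the secondary wall, which include the primary-wall CESA genes, 8 were higher and 1 was lower. Gibberellin signalling, made of SLR1 and the GASA-type genes, had 5 higher and 3 lower of 10. These counts stand beside 42% higher and 38.6% lower over all tested genes. The words for the circadian clock matched no gene named for the clock, only genes with a CCT motif, efflux genes and response regulators, of which 19 were higher and 10 lower of 34.

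Markers of cell types moved between the same libraries. Tapetum markers, nearly all strictosidine synthase-like genes, summed to between 111 and 128 CPM in Ls-4mm and between 507 and 517 CPM in Ls-6mm, with 12 of 13 tested genes higher. A single gene, BGIOSGA009804, held most of that sum, at 111 ± 8.19 and 466 ± 5.61 CPM. The 3 genes matched as meiocyte markers were found by a HORMA or a Rad21/Rec8 domain, and whether they are particular to meiocytes was not tested. They summed to between 63.1 and 73.1 CPM in Ls-4mm and between 10.6 and 12.4 CPM in Ls-6mm. All 3 were lower. Genes matched by the words pollen allergen or Ole e I went from 1356 ± 87.3 to 14958 ± 232 CPM, with 33 of 46 tested genes higher and 7 lower. The study places Ls-6mm at the stage of pollen mother cells, and whether these genes are particular to pollen was not tested. Genes of green tissue went from 2407 ± 172 to 5755 ± 109 CPM, with 39 of 44 tested genes higher. Over all tested genes, 42% were higher and 38.6% were lower. The words for stamen identity and carpel markers matched 0 genes. The part of these cell types in the changes of the MYB genes was not tested.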

How the data were processed

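Per the paper's methods and the labels, mRNA of anthers was sequenced on an Illumina HiSeq platform and reads were aligned with HISAT2 2.0.5. The authors counted reads per gene, and deposited raw counts. The submitters' notes list featureCounts 1.5.0-p3. The deposited FPKM values were computed by the authors from the same counts and the coding length of each gene, and were used here only in an alternative. No source used here states the strand setting, so reads of a gene and of an antisense partner cannot be told apart. 1 of the 240 genes overlaps another model on the opposite strand, and it was not called. Columns of the authors' fold changes and p-values were not used, nor were 36 further columns of values per sample.

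Counts of 6 libraries (14509449 to 21232663 each) were fitted with edgeR 4.0.16 under R 4.3.3: filterByExpr (minimum count 10, minimum total count 15), TMM scaling, stage as the only term, a quasi-likelihood test and Benjamini-Hochberg adjustment. The biological coefficient of variation was 4.73%. The fit was also run on simulated counts in which few genes changed, unlike these data, so that run does not test the scaling used here. Intervals and limits of 3 counts cover counting error only. For a gene at 0 counts this limit is 0.0605 CPM for the Ls-4mm group and 0.0563 for the Ls-6mm group. The 95% intervals for ratios are exact conditional (Clopper-Pearson) intervals.

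Named genes were those with a product name; the 10 largest called rises and 10 largest called falls without overlap whose higher stage had 5 CPM or more; the 8 most abundant per kb; the 4 with the smallest change at 20 CPM or more; those at 0 counts in one stage and at least 1 CPM in the other; and every gene of groups of 3 or more within 50 kb. Other genes with a MYB-CC or PF13921 motif, BGIOSGA001460, BGIOSGA008698 and BGIOSGA008700 were named after their values were seen. The members and lists were chosen with earlier results of these data known, and the lists of SPX, phosphatase, GASA, alpha-amylase, lyase, synthase, CESA and outside MYB genes were added after matches were seen. Lists match words of the table and were given counts only.

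Alternatives were DESeq2 1.42.0, RLE size factors, library size only, other count filters, limma 3.58.1 on log2(FPKM + 1) and log2(FPKM + 0.1), a replicate block, stricter calls, other choices of members and each library left out in turn.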

Additional observations from a re-analysis of the deposited data

How the results depend on the processing

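Across the alternatives the number of MYB genes higher in Ls-6mm ran from 61 (at least 10 counts in every library, 121 tested) to 101 (no filter, 225 tested), and the number lower from 15 to 55. The main counts were 84 and 45. Falls were few under a stricter call: with an adjusted p of at most 0.001 and at least a 2-fold change, 15 were lower and 64 higher. With members matched by description words alone, 23 were lower and 69 higher. DESeq2 gave 95 and 44, RLE size factors 85 and 45, library size only 79 and 54, and limma on FPKM 82 and 47 with either pseudocount. Leaving out 1 library gave 83 to 90 higher and 43 to 46 lower. With Myb/SANT-like genes added, chosen after seeing the data, the counts were 90 and 55. In 0 of these fits did a called gene turn to a call in the opposite direction.

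Scaling by library size only moved the median log2 fold change of all genes from 0.04 to -0.10 and that of the tested MYB genes from 0.51 to 0.38, and near 0 it set the sign of several genes: BGIOSGA020708 became -0.13, BGIOSGA022077 -0.0050 and BGIOSGA027652 -0.14, and PHR2 was then called lower (-0.16). BGIOSGA020708 was also negative in limma on FPKM (-0.037 with a pseudocount of 1 and -0.038 with 0.1) and with no filter (-0.013), and leaving out 1 library gave -0.045 to 0.033. PHR2 was 0.040 with at least 10 counts in every library. BGIOSGA027652 was -0.018 with no filter and -0.35 to 0.23 with 1 library left out, lowest without replicate 3 of Ls-4mm. PHR3 (BGIOSGA007162) was -0.53 to 0.053 with 1 library left out. None of these genes had been called, and the causes were not tested.

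With the replicate number as a block, 83 were higher and 44 lower. The labels do not say that a number marks a shared origin, and deviations of same-numbered libraries correlated at -0.028, -0.013 and -0.009, so the numbers were not taken to pair the libraries. Genes under about 10 counts per library could not be tested, which left 76 MYB genes without a call.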
